A study of Mus musculus with 6 samples.

Results

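The cytosolic ribosomal protein genes were read out in the ventricles of mice given Paro/Neo, a combination of the aminoglycosides paromomycin and neomycin, and of mice given vehicle. Members were the features of the expression table whose symbol has the form Rpl or Rps, a number and at most a closing a, x or l, together with Rplp0, Rplp1, Rplp2 and Rpsa. The symbols alone chose them, and 80 of 18158 listed features matched. Of these, 45 encode proteins of the large subunit, 3 form its stalk and 32 belong to the small subunit. Paro/Neo mice received 150 mg/kg by intraperitoneal injection 2 times a day for 14 days. Vehicle mice received PBS. All were 3-month-old CD1 mice, and each group held 3 hearts, labelled as biological replicates 1 to 3, with 1 stranded mRNA library per heart. The series describes the combination as one that suppresses Meis1 and Hoxb13 activity, and the comparison asks how gene expression differs under it. Whole ventricles were ground, so for any gene fewer cells of a type and less RNA per cell cannot be told apart.

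Ribosomal proteins assemble with ribosomal RNA into a small subunit, which decodes the mRNA, and a large subunit, which joins amino acids and holds the exit tunnel. Aminoglycosides such as paromomycin and neomycin bind the decoding site of the bacterial ribosome. Most ribosomal protein mRNAs start with a terminal oligopyrimidine (TOP) tract, through which growth signalling by mTORC1 controls their translation as a set. Most of these genes also have many processed pseudogenes, which are reverse-transcribed copies inserted elsewhere in the genome and close to the mRNA in sequence.

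No ribosomal protein gene passed the test between Paro/Neo and vehicle hearts. The deposited values are in TPM (transcript levels scaled for gene length and to a fixed library sum), and the test was limma on log2(TPM + 1) over 12409 features that reached 1 TPM in at least 3 libraries. A call needed a Benjamini-Hochberg adjusted p below 0.05. Over all features, 15 were called higher (0.121%) and 2 lower (0.0161%). Of the 80 members 75 were tested. Rpl3, Rpl10a, Rpl28, Rpl29 and Rpl39l, at 0 to 10 reads per library, missed the filter. With 0 of 75 called in either direction, the limma adjusted p ran between 0.521 and 0.998. At an unadjusted limma p below 0.05 there was 1 member, Rps16, on the higher side, and 0 on the lower side, where the shares of all features were 3.24% and 4.37%. Limma voom on inferred reads also called 0 members.

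The differences were small for most members. The log2 change lay within 0.25 of 0 for 62 of the 75 (82.7%, against 79.0% of all features). Its median was 0.08, where the median of all features was -0.02. It was above 0 for 53 members, where 46.3% of all features were above 0, and below 0 for 22 (29.3%), where 53.7% of all features were below 0. The 95% interval held 0 for 74 members and lay within -1 to 1 for 65, with a median width of 0.37 to each side. By subunit, 31 of 40 tested large-subunit genes and 21 of 32 small-subunit genes were above 0, with medians of 0.09 and 0.07, and 1 of the 3 stalk genes, with a median of -0.03. Groups did not overlap for 4 members, all higher in Paro/Neo hearts (Rpl19, Rps9, Rps16 and Rps18), and for 0 in the other direction. Of these, Rps18 had only 6 to 12 reads per library. Among all features 6.04% lay wholly higher and 8.22% wholly lower.

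**Figure D1:**
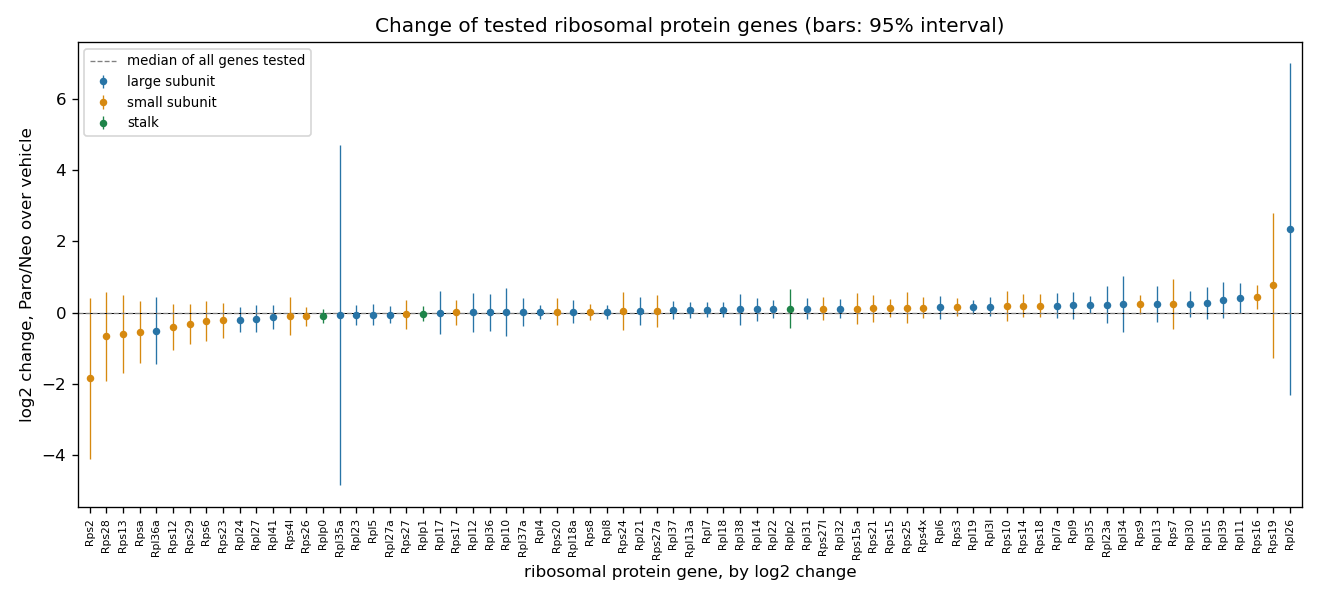
Log2 change on the log2(TPM + 1) scale, Paro/Neo over vehicle, of tested ribosomal protein genes, ordered by size and coloured by subunit, with the 95% interval from limma. Most points lie within 0.25 of 0, and all intervals drawn except that of Rps16 hold 0. The widest belong to Rpl26, Rpl35a, Rps2 and Rps19.

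The number of members above 0 depended on single hearts of both groups. Relative to the vehicle mean, the median member stood at 0.22, -0.01 and 0.01 (log2) in Paro/Neo hearts 1, 2 and 3, against -0.08, 0.06 and 0.04 in vehicle hearts 1, 2 and 3. Paro/Neo heart 1 was the highest of the 6 for 39 of 75 members (52.0%), where it was the highest for 27.1% of all features. The other hearts were the highest for 6 and 7 members in the Paro/Neo group and for 7, 7 and 9 in the vehicle group. Without Paro/Neo heart 1, 40 members lay above 0 and 35 below, and the median was 0.0043. Without vehicle heart 1, 42 lay above 0 and 33 below, with a median of 0.03. Quality weights estimated by limma were lowest for Paro/Neo heart 1, at 0.261, where those of the other 5 ranged between 0.906 and 2.21. The part of either library in the difference was not tested beyond leaving it out.

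**Figure D2:**
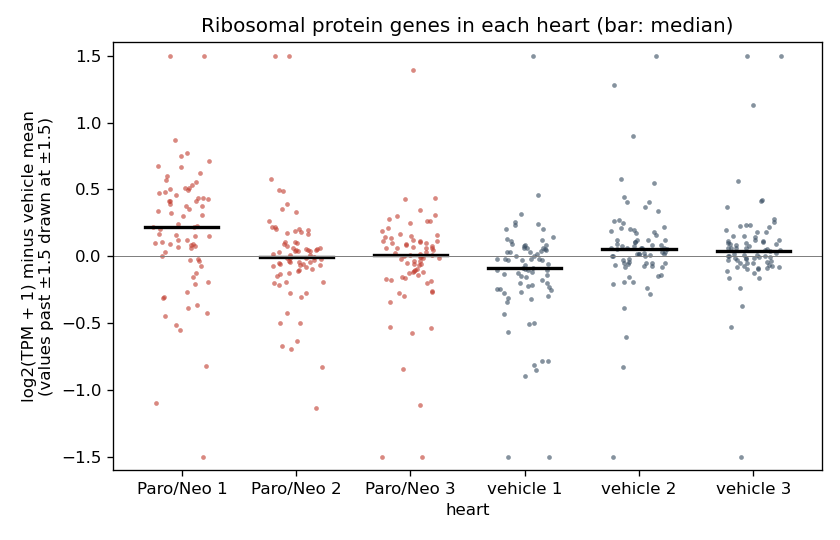
Log2(TPM + 1) of each tested ribosomal protein gene in each heart, minus that gene's mean over the 3 vehicle hearts. Each point is 1 gene and the bar is the median of the 75 genes in that heart. The bar of Paro/Neo heart 1 is at 0.22, while those of the other 5 hearts lie between -0.08 and 0.06.

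Summed over the 80 members, ribosomal protein mRNA took 21773, 18644 and 18717 TPM in Paro/Neo hearts, against 17777, 19041 and 18609 TPM in vehicle hearts. The mean was 19712 ± 1786 TPM in Paro/Neo hearts and 18476 ± 642 TPM in vehicle hearts (SD, n = 3 each). These means are 1.97% ± 0.18 and 1.85% ± 0.06 of the TPM total, which is scaled for gene length and is not a share of reads. The ratio was 1.07, the groups overlapped, and without Paro/Neo heart 1 the difference shrank to 205 TPM. Large-subunit genes summed to 9226 ± 493 TPM in Paro/Neo hearts and 8678 ± 94.2 TPM in vehicle hearts. Small-subunit genes summed to 8982 ± 1254 TPM and 8267 ± 551 TPM in the same groups. The stalk genes summed to 1503 ± 108 TPM in Paro/Neo hearts and 1531 ± 47.8 TPM in vehicle hearts (SD, n = 3 each).

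The listed levels of single members were far from equal. Most of the proteins are known to be present at a single copy per ribosome. Means over the 6 hearts ran between 0.0828 TPM for Rpl39l and 1154 TPM for Rpl4, with a median of 108 TPM. At or above 500 TPM were 15 members, among them Rpl4, Rpl32, Rpl13a, Rpl7, Rpl41 and Rpl8 of the large subunit, the stalk genes Rplp0 and Rplp1, and Rps15, Rps14, Rps24, Rps9 and Rps3 of the small subunit. Below 5 TPM were 16 members: Rpl39l, Rpl29, Rpl3, Rpl28, Rpl10a, Rpl23a, Rpl24, Rpl27, Rpl36a and Rpl34 of the large subunit, and Rps29, Rps27, Rps13, Rps18, Rps23 and Rps27a of the small subunit. Median levels were similar, 83.5 TPM for large-subunit and 91.2 TPM for small-subunit genes. Rpl4, whose protein lines the exit tunnel, had 1212, 1178 and 1102 TPM in Paro/Neo hearts, against 1129, 1123 and 1181 TPM in vehicle hearts. It was among the steadiest genes, with a log2 change of 0.02 ± 0.09 (SE, limma adjusted p = 0.955) and a 95% interval of -0.18 to 0.23.

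**Figure D3:**
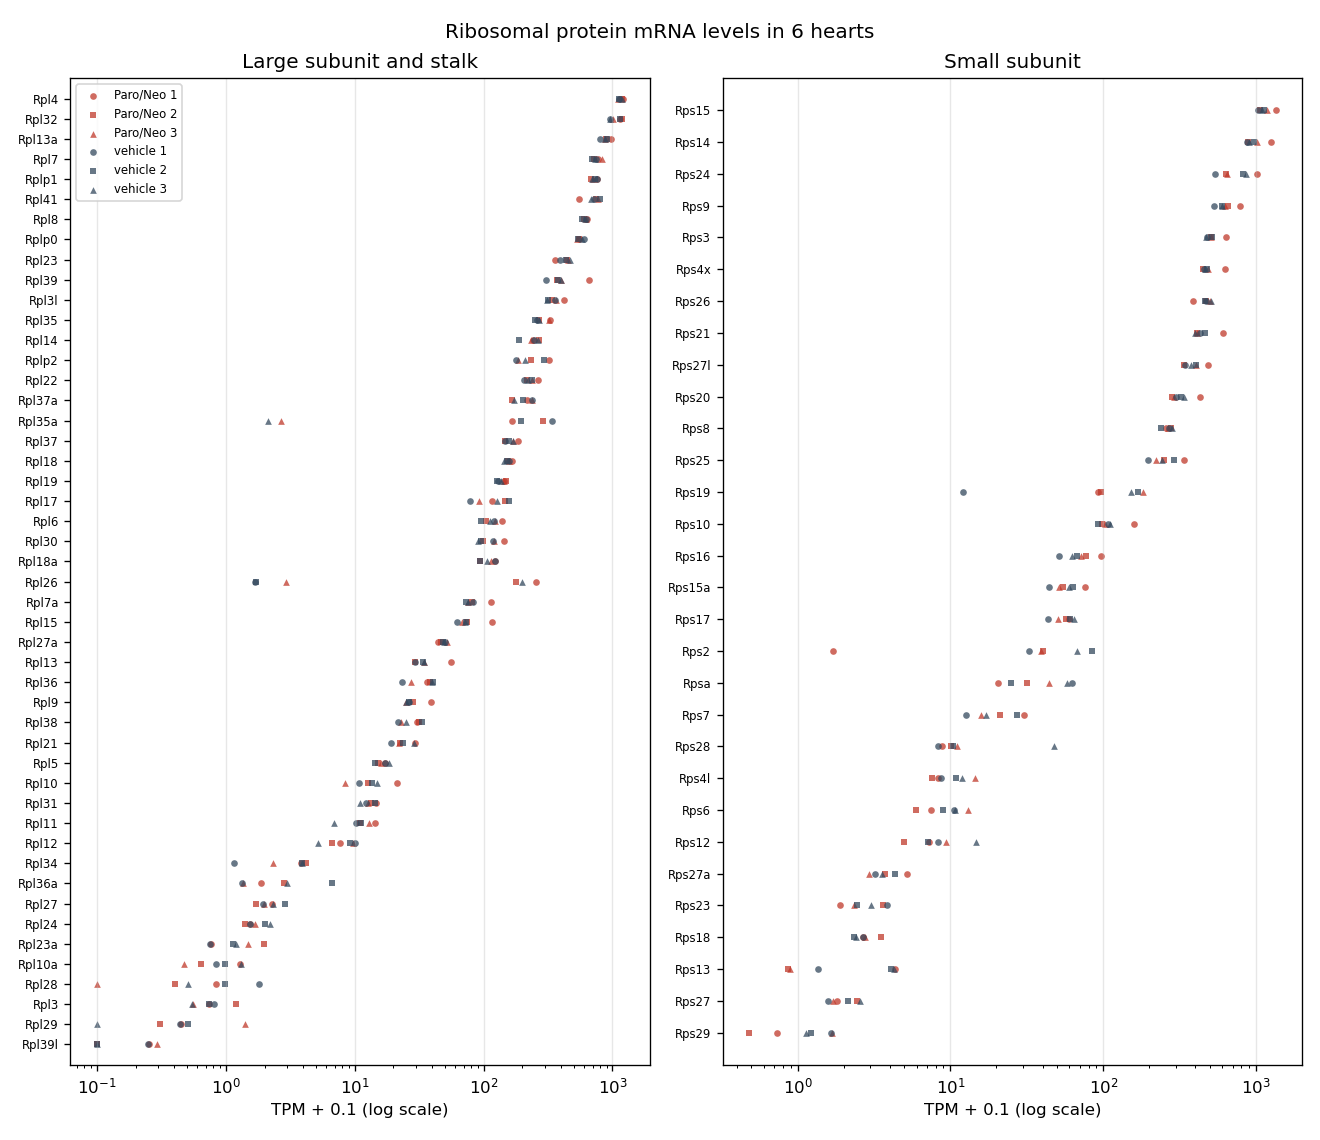
TPM of ribosomal protein genes in each heart (log scale, 0.1 added), with large-subunit and stalk genes on the left and small-subunit genes on the right, ordered by mean. Symbols of both groups lie on top of each other for most genes. Levels run from below 1 TPM to above 500 TPM, and a few genes such as Rpl26, Rpl35a and Rps2 spread widely between hearts.

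Rpl3l, the striated-muscle paralog of Rpl3, was abundant and Rpl3 was listed near 0. In mouse heart and skeletal muscle the Rpl3l protein takes the place of Rpl3 near the peptidyl transferase centre. Rpl3l lies on the plus strand at chr17:24727820-24736143 and Rpl3 on the minus strand at chr15:80077791-80091868 (GRCm38, GENCODE M21 annotation). Their coding sequences are identical at 896 of 1224 aligned bases (73.2%), with no identical run longer than 22 bases. No stretch of 76 bases, the read length, is the same in both. Coding bases 1 to 90 of each are shown to let the differences be seen that keep their reads apart, with capitals at the 21 bases that differ:
Rpl3l: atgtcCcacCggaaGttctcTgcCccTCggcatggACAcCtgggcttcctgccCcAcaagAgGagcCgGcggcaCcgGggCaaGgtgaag
Rpl3: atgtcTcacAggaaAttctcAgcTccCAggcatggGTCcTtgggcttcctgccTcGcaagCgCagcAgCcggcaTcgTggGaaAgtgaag

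Rpl3l had 417, 337 and 363 TPM in Paro/Neo hearts, against 360.3, 318 and 311 TPM in vehicle hearts. The highest value was Paro/Neo heart 1, and the groups overlapped. Means were 372 ± 40.8 TPM in Paro/Neo hearts and 329.8 ± 26.6 TPM in vehicle hearts (SD, n = 3 each). The log2 change was 0.17 ± 0.11 (SE, limma adjusted p = 0.748) with a 95% interval of -0.09 to 0.43. All 1300 of its 76-base stretches occur in no other annotated gene. Rpl3 had 0.636, 1.10 and 0.454 TPM in Paro/Neo hearts (7, 10 and 4 reads), against 0.718, 0.643 and 0.448 TPM in vehicle hearts (8, 6 and 3 reads). Only 215 of its 1276 stretches (16.8%) are its own, the rest occurring also in 8 pseudogenes. Its listed level is therefore uncertain. The listed ratio of Rpl3l to Rpl3 was 656, 307 and 799 in Paro/Neo hearts, against 502, 495 and 693 in vehicle hearts. These ratios overlapped, with a log2 difference of -0.03 (two-sided exact permutation p = 0.9, where 3 hearts against 3 cannot go below 0.1).

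Rps27l and Rps27 formed the same picture in the small subunit. Rps27l is a p53-induced paralog of Rps27, and lies on the plus strand at chr9:66946086-66949516, with Rps27 on the minus strand at chr3:90212522-90213651 (GRCm38, GENCODE M21). They share 192 of 252 coding bases (76.2%) and no identical run over 11 bases. Coding bases 1 to 90 are given for the same reason as above, with capitals at the 24 differences:
Rps27l: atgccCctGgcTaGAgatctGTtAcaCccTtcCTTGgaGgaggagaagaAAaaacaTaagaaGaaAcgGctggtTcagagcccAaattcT
Rps27: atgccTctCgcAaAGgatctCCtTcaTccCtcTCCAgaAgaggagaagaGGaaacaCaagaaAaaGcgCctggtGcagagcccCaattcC

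Rps27l had 484, 335 and 403 TPM in Paro/Neo hearts, against 341, 405 and 372 TPM in vehicle hearts. Paro/Neo hearts were both the highest and the lowest of the 6, and the log2 change was 0.11 ± 0.14 (SE, limma adjusted p = 0.849). Rps27 was listed at 1.72, 2.34 and 1.61 TPM in Paro/Neo hearts (8, 9 and 6 reads), against 1.49, 2.03 and 2.48 TPM in vehicle hearts (7, 8 and 7 reads). Of its 270 stretches only 4 (1.48%) are its own, and 266 (98.5%) occur in Rps27rt, an intact retrocopy listed at 1 to 5 reads per library. The Rps27 level, like that of Rpl3, is uncertain.

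The other paralogs of the pattern were Rpl39l and Rps4l. Rpl39, which lines the exit tunnel, had 662, 371 and 402 TPM in Paro/Neo hearts, against 307, 381 and 402 TPM in vehicle hearts, and a log2 change of 0.36 ± 0.22 (SE, limma adjusted p = 0.733). That change was 0.10 without Paro/Neo heart 1 and 0.16 with array weights. Its paralog Rpl39l, known for its role in the mouse testis, had 0 or 1 read in every library, although all of its stretches are its own. The 2 share 130 of 153 coding bases (85.0%). Rps4l, related to the X-linked Rps4x, had 8.14, 7.46 and 14.3 TPM in Paro/Neo hearts, against 8.57, 10.9 and 11.9 TPM in vehicle hearts. Paro/Neo hearts held both the lowest and the highest Rps4l value.

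Neither the stalk genes nor Rpsa passed the test. Rplp0, which carries dimers of Rplp1 and Rplp2 and with them recruits elongation factors, had 546, 545 and 529.9 TPM in Paro/Neo hearts, against 604, 542 and 576 TPM in vehicle hearts. Its log2 change was -0.09 ± 0.09 (SE, limma adjusted p = 0.821, 95% interval -0.29 to 0.12). Rplp1 had 759, 679 and 711 TPM in Paro/Neo hearts, against 762, 732 and 693 TPM in vehicle hearts. The 2 groups overlapped for both genes. Rplp2 spread more, with 322, 232 and 186 TPM in Paro/Neo hearts against 179, 295 and 209 TPM in vehicle hearts, and a log2 change of 0.11 ± 0.24 (SE, limma adjusted p = 0.919). Rpsa, a small-subunit protein also known as the laminin receptor precursor, had 20.4, 31.4 and 44.2 TPM in Paro/Neo hearts, against 61.9, 24.7 and 58.1 TPM in vehicle hearts. The groups overlapped, and the log2 change was -0.54 ± 0.38 (SE, limma adjusted p = 0.760).

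Rps16 had the smallest p of the members. Its protein reaches towards the decoding region of the small subunit. It had 95.7, 76.8 and 71.8 TPM in Paro/Neo hearts, against 51.0, 66.9 and 62.5 TPM in vehicle hearts, so that each Paro/Neo heart lay above each vehicle heart. Means were 81.4 ± 12.6 TPM in Paro/Neo hearts and 60.1 ± 8.19 TPM in vehicle hearts (SD, n = 3 each). The log2 change of 0.43 ± 0.15 (SE, 95% interval 0.09 to 0.77) had an unadjusted limma p of 0.0188 and an adjusted p of 0.521. Next was Rpl11, which with Rpl5 binds Mdm2 in p53 signalling, at 14.4, 10.8 and 12.7 TPM in Paro/Neo hearts against 10.1, 11.1 and 6.85 TPM in vehicle hearts. Its log2 change was 0.42 ± 0.18 (SE, limma adjusted p = 0.654), and the groups overlapped. Rpl35, next to the tunnel exit, averaged 306 ± 32.2 TPM in Paro/Neo hearts and 261 ± 9.76 TPM in vehicle hearts (SD, n = 3 each). The Rpl35 groups overlapped, and its log2 change was 0.23 ± 0.11 (SE, limma adjusted p = 0.673, 95% interval -0.02 to 0.47).

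Rps9 and Rpl19 were the other abundant genes whose groups did not overlap. Rps9 had 779, 649.9 and 621 TPM in Paro/Neo hearts, against 531, 598 and 600.1 TPM in vehicle hearts, a log2 change of 0.24 ± 0.12 (SE, limma adjusted p = 0.686). Rpl19 had 145, 149 and 144 TPM in Paro/Neo hearts, against 128, 126 and 135 TPM in vehicle hearts, a log2 change of 0.17 ± 0.09 (SE, limma adjusted p = 0.700). Rpl19 was the tightest of the non-overlapping genes, with means of 146 ± 2.83 TPM in Paro/Neo hearts and 130.03 ± 4.79 TPM in vehicle hearts (SD, n = 3 each). Rps18 had 2.59, 3.42 and 2.65 TPM in Paro/Neo hearts, against 2.56, 2.23 and 2.33 TPM in vehicle hearts (limma adjusted p = 0.760). These values rest on 11, 12 and 9 reads in Paro/Neo hearts and 11, 8 and 6 reads in vehicle hearts. The closest pair, Paro/Neo heart 1 and vehicle heart 1, had 11 reads each. Only 22.9% of the Rps18 stretches are its own. Rpl15 stood out in 1 heart, with 116, 73.9 and 67.9 TPM in Paro/Neo hearts against 62.2, 72.7 and 71.5 TPM in vehicle hearts. On the lower side, Rps12 had 7.16, 4.90 and 9.24 TPM in Paro/Neo hearts, against 8.25, 7.04 and 14.5 TPM in vehicle hearts. Rps13 and Rpl36a also had low listed values, at 3 to 20 and 4 to 22 reads per library. Their log2 changes were -0.61 and -0.50, and both overlapped between groups. Leaving out 1 heart gave -1.12 to -0.34 for Rps13 and -0.93 to -0.05 for Rpl36a.

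A few members differed many-fold between hearts of the same group. Of the 63 members that reached 10 TPM in a library, 5 (7.94%) differed by over 4-fold between hearts of 1 group, where 86 of 7627 such features (1.13%) did over the whole table. They were Rpl26, Rpl35a, Rps2, Rps19 and Rps28. Rpl26, a protein beside the tunnel exit, had 254, 179.95 and 2.84 TPM in Paro/Neo hearts, against 1.57, 1.61 and 200.03 TPM in vehicle hearts. These values rest on 1114, 654 and 10 reads in Paro/Neo hearts and 7, 6 and 534 reads in vehicle hearts. Rpl26 was thus high in 3 hearts and near 0 in the other 3, with both states in both groups. The log2 change was 2.34 ± 2.02 (SE, limma adjusted p = 0.791).

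Rpl35a, a large-subunit protein whose human gene is mutated in some Diamond-Blackfan anaemia, had 166, 287 and 2.59 TPM in Paro/Neo hearts, against 338, 195 and 2.04 TPM in vehicle hearts. It was low in heart 3 of each group, and its log2 change was -0.08 ± 2.07 (SE, limma adjusted p = 0.997). Rps2, which lies at the mRNA entry channel, had 1.61, 40.1 and 38.9 TPM in Paro/Neo hearts, against 32.8, 84.0 and 67.4 TPM in vehicle hearts. Here Paro/Neo heart 1 alone was low, at 13 reads where the other 5 had 252 to 575. The log2 change of Rps2 was -1.84 ± 0.98 (SE, limma adjusted p = 0.706), the most negative of the members over all 6 hearts. It was -0.52 without Paro/Neo heart 1 and -0.71 with array weights, where Rps13 was more negative. Rps19, also a Diamond-Blackfan anaemia gene in humans, had 92.0, 96.4 and 182 TPM in Paro/Neo hearts, against 12.04, 168 and 152 TPM in vehicle hearts. Rps28 had 8.69, 10.1 and 10.9 TPM in Paro/Neo hearts, against 8.22, 10.3 and 47.3 TPM in vehicle hearts. The outlying heart was Paro/Neo heart 1 for Rps2, vehicle heart 1 for Rps19 and vehicle heart 3 for Rps28. For both Rpl26 and Rpl35a, heart 3 of each group stood apart from the other hearts of its group.

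**Figure D4:**
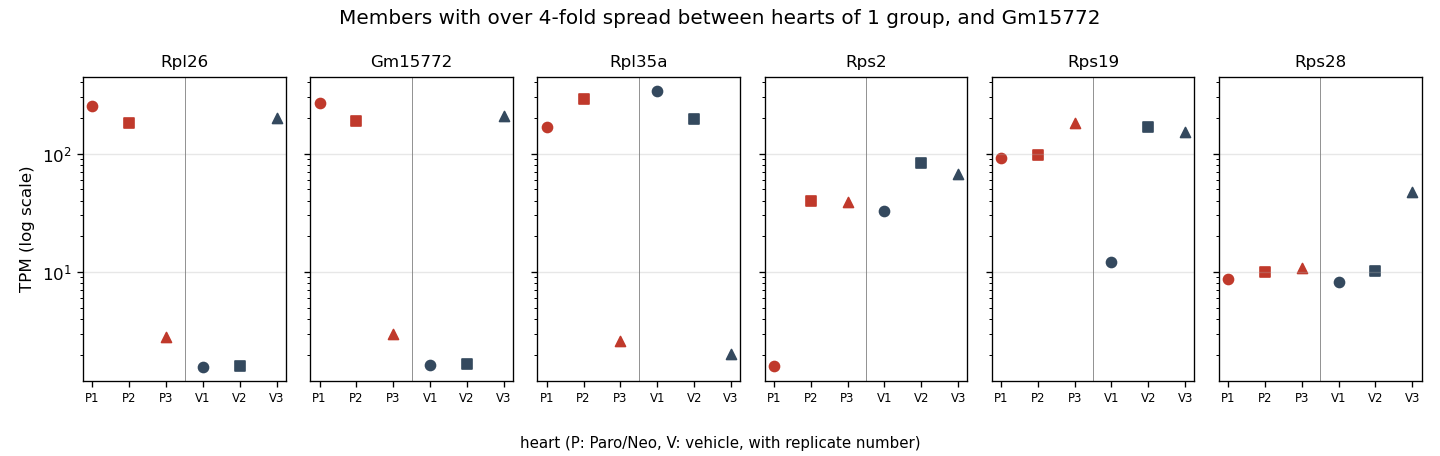
TPM (log scale) in each heart of the 5 ribosomal protein genes that differed by over 4-fold between hearts of 1 group, and of the pseudogene Gm15772. P marks Paro/Neo and V vehicle hearts, with the replicate number. Rpl26 and Gm15772 show the same pattern, high in P1, P2 and V3, while Rpl35a is low in P3 and V3 and Rps2 in P1.

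The processed pseudogene Gm15772 on chromosome 5 followed Rpl26 read for read. Its inferred reads equalled those of Rpl26 in all 6 libraries, over 6 to 1114 reads. It was listed at 265, 188 and 2.97 TPM in Paro/Neo hearts, against 1.64, 1.68 and 209 TPM in vehicle hearts. Rpl26 lies on the plus strand at chr11:68901583-68906989 (GRCm38, GENCODE M21), and Gm15772 shares 433 of its 435 coding bases (99.5%) and 211 of its 451 stretches of 76 bases (46.8%). The windows below, coding bases 88 to 177 of Rpl26 and the matching bases of the pseudogene, show how close they are, with the single differing base in capitals:
Rpl26: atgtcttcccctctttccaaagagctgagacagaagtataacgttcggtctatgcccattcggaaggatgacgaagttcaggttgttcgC
Gm15772: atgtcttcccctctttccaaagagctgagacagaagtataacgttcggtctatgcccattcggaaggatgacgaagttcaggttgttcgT

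Reads from the shared stretches of such a pair cannot be told apart, and how the authors' counting treated reads with several matches is not given in the sources used here. Over the whole table, 5 of the 1549 features that reached 100 TPM in a library ranged over 50-fold between libraries (0.323%): Rpl26, Rpl35a, Gm15772, Gm4841 and F830016B08Rik. The 2 members make 4.65% of the 43 members at that level. Other pseudogenes also carried values. Gm12191, which shares 39.8% of the stretches of Rpl30, was listed at 187, 130.3 and 159 TPM in Paro/Neo hearts, against 155, 125 and 117 TPM in vehicle hearts. Rpl14-ps1, which shares 42.3% of the stretches of Rpl14, had 34.2, 21.3 and 29.6 TPM in Paro/Neo hearts, against 5.28, 16.8 and 5.57 TPM in vehicle hearts. Its log2 change was 1.68 ± 0.38 (SE, limma adjusted p = 0.254). Rpl14 itself averaged 248 ± 18.6 TPM in Paro/Neo hearts and 234 ± 39.0 TPM in vehicle hearts (SD, n = 3 each). In all, 22 members shared stretches with 25 other features of the table.

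Across members the listed level went with how much of the mRNA was unlike any other gene. The measure was taken on a single annotated transcript per gene. It was the percentage of 76-base stretches, the read length in the labels, found in no other GENCODE M21 gene on either strand. The transcript scored need not be the one behind the TPM. Rps20 was scored on 3706 bases and Rpl3l on 1375. In Paro/Neo heart 1 Rps20 had 426 TPM from 1729 reads, and Rpl3l 417 TPM from 5382 reads. The length behind the Rps20 TPM was thus the shorter one. How other transcripts would move members between the classes below was not tested. Over the 80 members Pearson's r with log level was 0.54 and Spearman's rho 0.57, given as a description since all points share the same libraries and members share sequence. With under 30% of stretches of their own, 22 members had a median of 11.5 TPM, 9 of them below 5 TPM and 2 at or above 100 TPM. Between 30% and 70%, 33 members had a median of 107 TPM, with 6 below 5 TPM and 17 at or above 100 TPM. At 70% or more, 25 members had a median of 452 TPM, with 22 at or above 100 TPM and 1, Rpl39l, below 5 TPM. Rpl35 went against this order, at 284 TPM with 11.02% of its own. Rps4l did so from the other side, at 10.2 TPM with 92.2% of its own. Wdr38, also on chromosome 2 and listed at 0 in all 6 libraries, held 54.8% of the Rpl35 stretches. Any other gene name counted, also a gene model at the member's own locus. Whether Wdr38 is such a model was not tested.

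**Figure D5:**
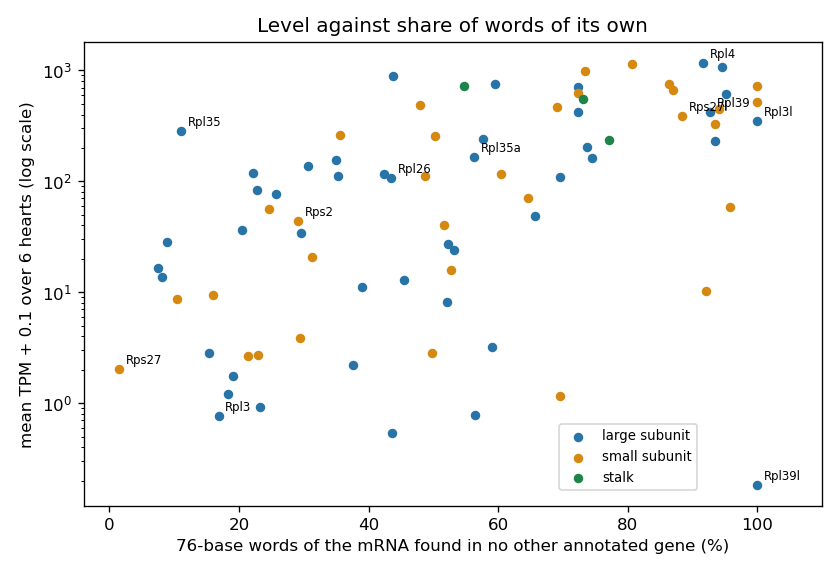
Mean TPM over 6 hearts (log scale, 0.1 added) of each ribosomal protein gene against the percentage of its 76-base stretches in no other annotated gene. The stretches are those of a single annotated transcript per gene. Points on the right, such as Rpl4 and Rpl3l, sit high, while many on the left, such as Rps27 and Rpl3, sit near the bottom. Rpl39l at the right edge and Rpl35 on the left stand outside this order.

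The comparison between Paro/Neo and vehicle hearts was also read in the 24 tested members with 70% or more of their own stretches, a selection made after seeing the data. Of these 20 lay above 0 and 4 below, with a median log2 change of 0.10, where 46.3% of all features lay above 0. Paro/Neo heart 1 was the highest for 18 of the 24 (75%), where it was the highest for 27.1% of all features. Counts of this subset without that heart are not given here. Rps3, with all stretches its own, had 631, 506 and 503 TPM in Paro/Neo hearts, against 479, 511.9 and 469 TPM in vehicle hearts. Heart 1 of the Paro/Neo group stood above the other 5. Leaving out the 5 variable members, also chosen after seeing the data, gave 51 above 0 and 19 below, with a median of 0.09.

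Transcription starts of the members were searched for the pyrimidine tracts that define TOP mRNAs, in RefSeq windows on GRCm38.p6. The windows, 71 for 59 members, include alternative starts. A run of at least 5 pyrimidines lay over the annotated start in 20 of 71 (28.2%), where 10.1% of all 32851 windows had one. Tracts beside the annotated start, as in Rpl4 and Rpl11, were not counted. The run could extend before the start and needed no C there. A C stood at the start in 28.2% of member windows and 16.3% of all windows. The count therefore does not give the share of members that are TOP mRNAs. The letters CTTTCC were found, on the sense strand, within the 40 bases around the start in 11 (15.5%, against 1.95% of all windows). On either strand of the whole window they occurred in 35 (49.3%, against 26.6%). A match is only a match of letters. Shown are 60 bases around the start, 30 on each side, of Rpl15 and Rpl35, which have long tracts, and of Rpl3l, which has none, with the pyrimidine run in capitals. Rpl15 lies at chr14:18270957-18271016 and Rpl35 at chr2:39005102-39005161, both on the minus strand, and Rpl3l at chr17:24727796-24727855 on the plus strand:
Rpl15: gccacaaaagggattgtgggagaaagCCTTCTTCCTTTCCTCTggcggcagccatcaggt
Rpl35: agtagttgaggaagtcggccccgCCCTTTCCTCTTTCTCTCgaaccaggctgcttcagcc
Rpl3l: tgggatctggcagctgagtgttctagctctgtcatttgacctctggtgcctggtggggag

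Of 6 tested ribosomal protein genes listed outside the symbol pattern, 0 were called, where 0.121% of all features were called higher and 0.0161% lower. Rpl36al, paralog of Rpl36a, had 155, 138 and 129.6 TPM in Paro/Neo hearts, against 125, 118 and 128 TPM in vehicle hearts, a log2 change of 0.18 (limma adjusted p = 0.711) without overlap. Rpl22l1, paralog of Rpl22, had 225, 151 and 169.9 TPM in Paro/Neo hearts, against 126, 154 and 163 TPM in vehicle hearts, with overlap. Fau, which encodes a ubiquitin-like fusion with a small-subunit protein, averaged 13.7 ± 2.504 TPM in Paro/Neo hearts and 14.0 ± 1.44 TPM in vehicle hearts (SD, n = 3 each). Rps3a1, also outside the pattern but not on that list, had 263, 238 and 189.6 TPM in Paro/Neo hearts, against 309, 366 and 369 TPM in vehicle hearts, with no overlap. Its log2 change was -0.60 ± 0.14 (SE, limma adjusted p = 0.257), and 40.2% of its stretches are its own. The unadjusted limma p of Rps3a1, on the lower side, was 0.00257. That is below the 0.0188 of Rps16, the smallest of the members, which was on the higher side.

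The wider translation machinery likewise had 0 calls in each list, where 0.121% of all features were called higher and 0.0161% lower. Of all features 46.3% lay above 0 and 53.7% below, to be set beside each list. Of 17 elongation factor and other TOP genes 11 lay above 0 and 6 below, with a median log2 change of 0.06. Paro/Neo heart 1 was the highest for 9 of the 17 (52.9%), where it was the highest for 27.1% of all features. Eef1a2, the elongation factor of adult muscle, had 780.3, 522 and 566 TPM in Paro/Neo hearts, against 416, 467 and 336 TPM in vehicle hearts, without overlap. Its log2 change was 0.61 ± 0.18 (SE, limma adjusted p = 0.455). Eef2, the translocase, had 876, 592 and 575 TPM in Paro/Neo hearts, against 490.1, 514 and 437 TPM in vehicle hearts (limma adjusted p = 0.538). Eef1a1, the general paralog of Eef1a2, averaged 787 ± 64.3 TPM in Paro/Neo hearts and 783 ± 59.4 TPM in vehicle hearts (SD, n = 3 each). Vim, a TOP mRNA that marks non-muscle cells, had 239.9, 336 and 312 TPM in Paro/Neo hearts, against 371, 423 and 407 TPM in vehicle hearts (limma adjusted p = 0.483). Fibroblast markers summed to 2484 to 2744 TPM in Paro/Neo hearts and 2829.5 to 2965 TPM in vehicle hearts, with 10 of 10 below 0 and a median log2 change of -0.48, and their part in the Vim values was not tested.

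Of 38 initiation factors 21 lay above 0 and 17 below, with a median of 0.0069. Eif4a1, the mRNA-unwinding helicase, had 45.0, 39.6 and 44.2 TPM in Paro/Neo hearts, against 72.0, 89.2 and 49.4 TPM in vehicle hearts, a log2 change of -0.66 (limma adjusted p = 0.467). Eif1, which guards start-codon choice, had a log2 change of 0.23 (limma adjusted p = 0.666). Ribosome biogenesis held 21 of 51 genes above 0 and 30 below, with a median of -0.03. Its smallest p-values belonged to Heatr1, a factor for rRNA transcription and processing, and Nop2, an rRNA methyltransferase, with log2 changes of -0.36 and -0.30 (limma adjusted p = 0.590 and 0.650). Of 14 RNA polymerase I genes 6 lay above 0 and 8 below, led by Cd3eap and Ubtf at -0.21 and -0.19.

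Among 20 genes of mTORC1 and Myc control 12 lay above 0 and 8 below, with a median of 0.09. Max, the partner of Myc, was at 0.22 and Deptor, an inhibitor of mTOR, at -0.24 (limma adjusted p = 0.693 and 0.695). Myc itself had 1.597, 1.99 and 1.29 TPM in Paro/Neo hearts, against 1.37, 1.22 and 0.678 TPM in vehicle hearts. Ribosome quality control had 9 of 17 genes above 0 and 8 below. G3bp1, a stress granule protein, was at -0.23 and Eif2ak4, the kinase that senses stalled translation, at -0.16 (limma adjusted p = 0.708 and 0.793). Of the 7 tested paralogs, members and others together, 6 lay above 0, with a median of 0.17, where 46.3% of all features lay above 0. Paro/Neo heart 1 was the highest for 5 of these 7 (71.4%), against 27.1% of all features. In the initiation, biogenesis, RNA polymerase I, mTORC1 and Myc, and quality control lists it was the highest for 21.4% to 41.2%.

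Inferred depth was 12421206 to 15575723 reads in Paro/Neo hearts and 9556387 to 15969980 reads in vehicle hearts, and 76543 to 145338 of them per library fell on members. Cardiomyocyte markers summed to 176287 TPM in Paro/Neo heart 1, 200871 and 199107 TPM in Paro/Neo hearts 2 and 3, and 178428 to 186177 TPM in vehicle hearts, with all 15 markers in the table. The lowest cardiomyocyte sum and the highest ribosomal protein sum thus fell on the same heart. Endothelial markers summed to 6539 to 7392 TPM in Paro/Neo hearts and 6686 to 6933 TPM in vehicle hearts, with 8 of 10 below 0 and a median log2 change of -0.25. For macrophage markers, 9 of 10 in the table, the sums were 679 to 717 TPM in Paro/Neo hearts and 573 to 701 TPM in vehicle hearts, with 8 of 9 above 0 and a median of 0.17. Those of erythroid markers were 4454 to 7164 TPM in Paro/Neo hearts and 4185 to 9103 TPM in vehicle hearts, with all 8 tested markers below 0 and a median of -0.26. Lymphocyte markers summed to at most 7.27 TPM in Paro/Neo hearts and 5.01 TPM in vehicle hearts, with Cd3e and Cd79a listed at 0 in at least 1 library. Of all features 46.3% lay above 0 and 53.7% below. The part of cell makeup in the ribosomal protein values was not tested.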

How the data were processed

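mRNA of 6 ventricles was sequenced, and the authors deposited 1 table of TPM values with a column per heart. STAR 2.5.3a, FastQC 0.11.5, edgeR, Subread and featureCounts were used on mm10, per the submitters' processing notes. For the annotation, the strand setting and reads with several matches, the choice is not given in the sources used here. TPM fixes each library's sum, so a rise in abundant genes lowers the rest. Groups and replicate numbers came from the sample titles.

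Limma 3.58.1 (R 4.3.3, trend) was fitted on log2(TPM + 1), without a block, over all features at 1 TPM or more in at least 3 libraries. A fold change on this scale understates that of low genes. Standard errors are limma's moderated ones, with a prior of 4.03 degrees of freedom. Ratios of TPM between libraries were solved for whole reads, which held to 0.001 read for 17574 of 17574 features above 0 and gave the inferred reads used for depth and for limma voom. Counting error is only part of the spread, and p-values measure the spread between 3 hearts a group. Hearts of the 2 groups with the same number in their titles did not deviate together. The sample descriptions number the Paro/Neo hearts otherwise than the titles, and a pairing by those numbers was not examined. Transcripts of GENCODE M21 (GRCm38) matched 17933 of 18158 symbols and were compared in Python 3.11.15 with pandas 2.3.3, numpy 2.4.6, scipy 1.17.1 and Biopython 1.88. The fits and the read inference were tested on simulated data.

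Named genes were Rpl3l, Rpl3, the other paralogs, the stalk genes, Rpsa, the 6 largest positive and 6 largest negative log2 changes, the 5 smallest p-values, the highest and lowest levels, and 2 genes per further list by smallest p. Rpl35a, Rps3, Rpl14, Rps18, Rps27, Rpl30, Rps3a1, Rps27rt, Fau, Eef1a1, Eef2, Myc and the pseudogenes were added after their values were seen. A few members are not reported singly here, and the plots that name genes leave them out. Members and lists were chosen with earlier results of these data known. Alternatives covered the pseudocount, filters, scaling, library weights, GC content and length, a replicate block, limma voom and leaving out each heart.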

Additional observations from a re-analysis of the deposited data

How the results depend on the processing

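The count of ribosomal protein genes called was 0 under all 16 alternatives, and their median log2 change stayed above 0 in each, between 0.0043 without Paro/Neo heart 1 and 0.14 without Paro/Neo heart 3. The number of members below 0, 22 in the reported fit, ran between 19 and 35 when 1 heart was left out, the highest without Paro/Neo heart 1. It was 4 of 24 (16.7%) in the members with 70% or more of their own stretches, against 29.3% of all tested members. Features called over the whole table, 17 in the reported fit, were 6 with no filter on low values and 26 with array weights. Leaving out 1 heart gave 5 to 27, and the cause of these differences was not tested. Deviations of hearts with the same title number correlated at -0.05, -0.04 and -0.12, so the title numbers gave no sign of pairs. The replicate block used these numbers, and those of the sample descriptions were not tried. A replicate block gave 27 called features, and the replicate block with a GC correction gave 3, with 0 members in both.

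The log2 difference in the Rpl3l to Rpl3 ratio, -0.03 as reported, was 0.076 with a pseudocount of 1 and ran between -0.31 and 0.38 when 1 heart was left out. Of 350 values for 22 named members, 336 kept their direction, 14 reversed and 0 passed the threshold, with a smallest limma adjusted p of 0.327. Leaving out 1 heart, the log2 change ran between -0.0058 and 0.063 for Rpl4, -0.069 and 0.011 for Rplp1, -0.10 and 0.31 for Rplp2, -0.018 and 0.25 for Rps27l, and -0.37 and 0.059 for Rps4l. It ran between -0.44 and 1.41 for Rps19 and between -1.11 and 0.089 for Rps28. Values reversed without Paro/Neo heart 1 for Rpl4, Rplp2, Rps27l and Rps4l, without Paro/Neo heart 2 for Rplp1 and Rps4l, without vehicle heart 1 for Rplp1, Rplp2 and Rps19, and without vehicle heart 3 for Rps28. Without a reversal, leaving out 1 heart gave -2.51 to -0.52 for Rps2, 1.25 to 4.44 for Rpl26, -0.95 to -0.26 for Rpsa, -0.60 to -0.13 for Rps12, 0.10 to 0.51 for Rpl39, 0.04 to 0.43 for Rpl15, 0.23 to 0.54 for Rpl11, 0.14 to 0.31 for Rps9 and 0.09 to 0.24 for Rpl3l. With the GC correction Rplp1 was at 0.029, with the replicate block and GC correction at 0.029 and with the length correction at 0.015, and with array weights Rps27l was at -0.014. The causes were not tested. Depth limits members at a few reads, such as Rpl3, Rps27 and Rps13, and reads that fit pseudogenes as well leave their listed levels uncertain.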
